A study of Mus musculus with 2 samples.

Results

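The PAR bZIP factors and the regulators around them take part in how the circadian clock reaches its output genes. They were taken as 10 named genes: Dbp, Tef, Hlf, Nfil3, Bhlhe40, Bhlhe41, Por, Csnk1d, Csnk1e and Wee1. Each probe set of a microarray that was annotated with exactly 1 of these symbols was used, and each gene is represented by its brightest probe set, by mean log2 signal over both samples. Of the 10 genes, 9 had such a probe set, 19 probe sets in all, beside 12393 genes on the whole array with a single-symbol probe set. Por was not analysed here, because the annotation table used pairs no probe set with it.

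Liver RNA of 2 pools of mice, control and squalene, was measured on 1 array each. Both pools came from male mice deficient in apolipoprotein E on the background C57BL/6J/ OLA129, with an age of 2 months given for both and a chow diet. Mice of both pools drank water with 1% glycerol for 10 weeks, and in the squalene pool this drink also carried squalene, the hydrocarbon from which sterols are made, at 1 g per kg per day. The sources used here do not give how many animals were pooled, at what hour the livers were taken or whether the mice had fed. With 1 array per group there is no replicate, so no test between groups and no p-value is given, and every difference below is one between these 2 pools.

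The clock proteins CLOCK and BMAL1 switch on genes through E-box sequences, and Dbp, Tef and Hlf are among the genes they drive. DBP, TEF and HLF are transcription factors of the proline and acidic amino acid-rich (PAR) basic leucine zipper family, which bind D-box sequences and carry the rhythm on to genes of drug, bile acid and lipid metabolism in the liver. NFIL3 represses from the same D-boxes, BHLHE40 and BHLHE41 repress from E-boxes, and the casein kinases CSNK1D and CSNK1E mark the period proteins for destruction.

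The promoters of the PAR bZIP genes are shown first, since these 3 genes are the ones that the results turn on, together with that of Per3, whose promoter holds the D-box that these factors bind. The reference promoter table, made from RefSeq on GRCm38.p6, gives 250 bases before to 50 bases after each start and had an entry for 7 of the 10 genes. Sequences are printed along the strand of the gene, and capitals mark matches to the motifs searched on both strands. These were the D-box (TTATGTAA or TTACGTAA), the E-box (CACGTG, the same on both strands), the E-prime box (CACGTT), the cyclic AMP response element CRE (TGACGTCA, also the same on both strands) and the longer RORE.
Dbp, chr7:45704997-45705296, plus strand: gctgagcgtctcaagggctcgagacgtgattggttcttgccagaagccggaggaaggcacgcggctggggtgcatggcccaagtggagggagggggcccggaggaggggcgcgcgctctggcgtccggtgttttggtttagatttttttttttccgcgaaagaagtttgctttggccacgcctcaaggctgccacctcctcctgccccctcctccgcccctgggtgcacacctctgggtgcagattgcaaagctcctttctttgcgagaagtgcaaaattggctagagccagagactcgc
Tef, first entry, chr15:81802423-81802722, plus strand: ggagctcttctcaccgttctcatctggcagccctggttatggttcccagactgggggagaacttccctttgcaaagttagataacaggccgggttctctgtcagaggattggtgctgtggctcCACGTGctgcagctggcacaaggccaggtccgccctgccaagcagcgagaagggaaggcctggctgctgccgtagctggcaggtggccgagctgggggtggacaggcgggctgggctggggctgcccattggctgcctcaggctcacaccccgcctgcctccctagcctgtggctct
Tef, second entry, chr15:81811164-81811463, plus strand: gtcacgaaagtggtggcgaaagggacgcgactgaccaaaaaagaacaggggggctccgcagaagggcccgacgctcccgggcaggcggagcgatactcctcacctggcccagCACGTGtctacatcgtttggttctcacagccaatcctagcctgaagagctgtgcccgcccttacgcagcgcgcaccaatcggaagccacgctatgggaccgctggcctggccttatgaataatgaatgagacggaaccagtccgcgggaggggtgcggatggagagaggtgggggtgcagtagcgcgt
Hlf, chr11:90390868-90391167, minus strand: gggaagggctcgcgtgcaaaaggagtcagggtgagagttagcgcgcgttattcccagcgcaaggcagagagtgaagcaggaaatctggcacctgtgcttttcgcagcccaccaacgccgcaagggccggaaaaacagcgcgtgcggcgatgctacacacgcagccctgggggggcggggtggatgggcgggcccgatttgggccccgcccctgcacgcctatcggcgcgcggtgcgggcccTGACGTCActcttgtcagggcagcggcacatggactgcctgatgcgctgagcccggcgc
Per3, chr4:151044616-151044915, minus strand: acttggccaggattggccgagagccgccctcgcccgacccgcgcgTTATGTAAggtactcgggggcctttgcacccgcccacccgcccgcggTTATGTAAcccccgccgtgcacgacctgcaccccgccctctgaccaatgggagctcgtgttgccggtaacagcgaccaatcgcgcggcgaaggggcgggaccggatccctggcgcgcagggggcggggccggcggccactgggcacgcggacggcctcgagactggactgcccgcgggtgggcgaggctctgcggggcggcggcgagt

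Both Tef entries held 1 E-box, at -127 to -122 and at -138 to -133 with the first transcribed base counted as 0. Hlf held a CRE at -9 to -2. The Dbp entry held none of the motifs searched in this stretch, which says only that these letters are not in this window. Bhlhe41 held an E-box at -153 to -148, so 2 of the 7 genes with an entry had one and 1 had a CRE. Per3 held 2 D-boxes, at -205 to -198 and at -158 to -151, and no member held one. Per3 was the only 1 of 12 core clock genes with an entry to hold a D-box. In the lists described below, 0 of 9 reported PAR bZIP target genes with an entry held one. Of the genes that act on clock proteins it was 1 of 15. Of 32851 promoter entries of the same length in the table, 7.15% held the E-box, 4.68% the E-prime box, 1.79% the CRE, 1.06% the D-box and 0.384% the RORE. These shares are per entry, while the member and list counts are per gene, and Tef and Csnk1e had 2 and 4 entries. None of the marked matches overlapped another. The arrays measured RNA and not binding, so a match is a description of the sequence alone.

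The 3 PAR bZIP genes all read higher in the squalene pool, while the repressors Nfil3 and Bhlhe40 and the kinases Csnk1d and Csnk1e lay close to 0. Dbp was 2.63-fold and Tef 1.65-fold higher, and Wee1, a cell cycle kinase, 1.92-fold higher. Hlf was 2.06-fold higher on the probe set that stands for it and 1.08-fold higher on another of almost equal brightness. A gene is called measured below where at least 1 pool gave a signal no lower than the array median, 39.9 for control and 41.35 for squalene, and higher or lower where its log2 ratio of squalene over control lay beyond 0.5. By these rules 8 members were measured. Of these 4 were higher and 0 lower, 4 lay between, and the median log2 ratio was 0.46. All 8 reached the median in both pools, so none was let in only by the pool in which it was high. Of 7330 measured genes 11.3% were higher and 10.4% lower, with a median of 0.01, and of 6459 genes that reached the array median in both pools 7.85% were higher and 6.35% lower. The submitters' own screen, a log2 ratio beyond 1.5 in either direction, was passed by 0 of the 8 measured members and by 2.26% of measured genes.

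**Figure D1:**
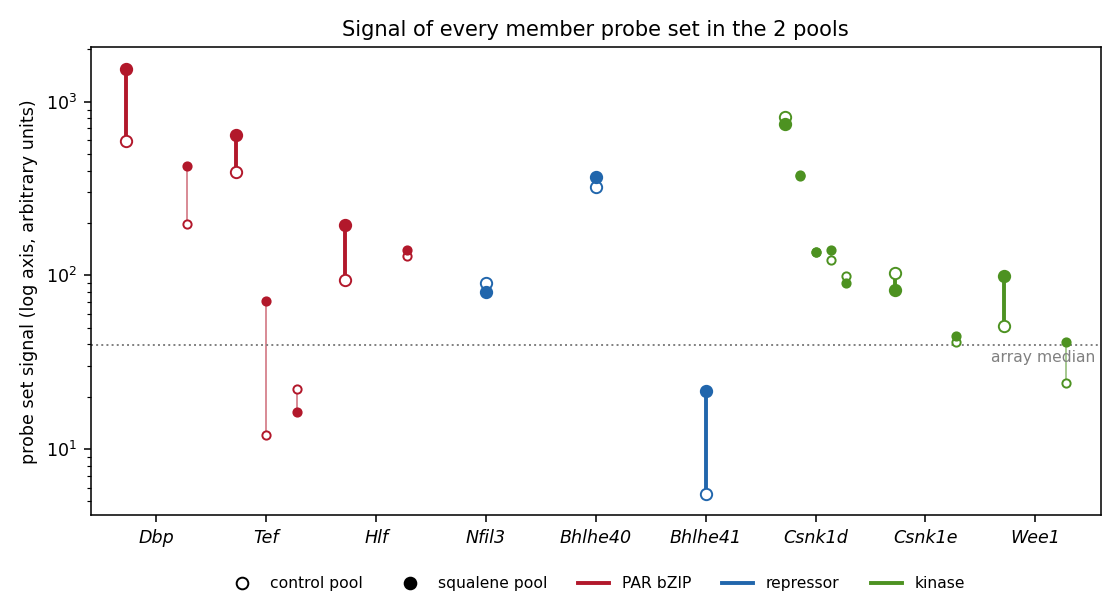
Signal of every member probe set (log axis, arbitrary units) in the control pool (open points) and the squalene pool (filled points), with large points and thick lines for the probe set that stands for the gene. On that probe set Dbp, Tef, Hlf and Wee1 are higher in the squalene pool and Nfil3, Bhlhe40, Csnk1d and Csnk1e lie within a log2 ratio of 0.5, and Bhlhe41 lies below the array median (dotted, drawn at 39.9) in both pools.

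Without replicate arrays, spread can be judged only from genes with several probe sets, and it depends on brightness. Measured probe sets were split into 3 equal classes of mean log2 signal, at geometric mean signals of 82.1 and 254.9. Within a class, the log2 ratio of 1 probe set had an SD of 0.88 in the dimmest (483 pairs of probe sets of 1 gene), 0.32 in the middle (557 pairs) and 0.17 in the brightest (725 pairs). This SD covers differences between probe sets and not those between animals, pools or arrays. Higher genes were likewise more frequent among dim ones, at 22.5% of the dimmest, 9.68% of the middle and 3.71% of the brightest class. Each member is therefore read against its own class. These classes also hold genes that reached the array median in only 1 pool. A share among genes that reached it in both was not taken by class.

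Dbp, the gene for albumin D-site binding protein and the PAR bZIP factor with the strongest rhythm in liver, had a control signal of 589.2 and a squalene signal of 1546.7 on its brighter probe set. On the other, which the annotation ties to a different sequence record, the signals were 196.1 and 424.6. Both probe sets were thus high in the squalene pool, by log2 ratios of 1.39 and 1.11. The suffix of the brighter one (_s_at) marks probes that can also bind related transcripts, and the other has the plain suffix. Both belong to the brightest class, where the SD was 0.17, and of its 2721 measured genes 2 had a higher ratio than Dbp. Over the measured genes of every brightness, 104 of 7330 had a higher ratio.

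Tef, for thyrotroph embryonic factor, had signals of 390.9 (control) and 644.5 (squalene), which differ by 0.72 on the log2 scale. In the brightest class 33 of 2721 genes (1.21%) had a higher ratio. Its 2 other probe sets were dim and went opposite ways. One read 12.1 and 70.9, below the array median in the control pool, and the other 22.1 and 16.4, below it in both. The higher reading of Tef thus rests on the bright probe set.

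Hlf, for hepatic leukemia factor, had 2 probe sets of almost the same brightness, with geometric mean signals of 135.4 and 134.7, and they did not read alike. The first, which the rule selects, gave 94.4 for control and 194.1 for squalene, with a log2 ratio of 1.04. The second gave 129.5 and 140.1, with a log2 ratio of 0.11. The annotation ties both to the same sequence record. In their class, the middle one with an SD of 0.32, 21 of 2448 genes had a higher ratio than the first probe set. With the mean of both the log2 ratio of Hlf was 0.58, still beyond 0.5, and with the second alone it was not. Both probe sets lay above 0, but the size of the difference cannot be fixed from them.

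**Figure D2:**
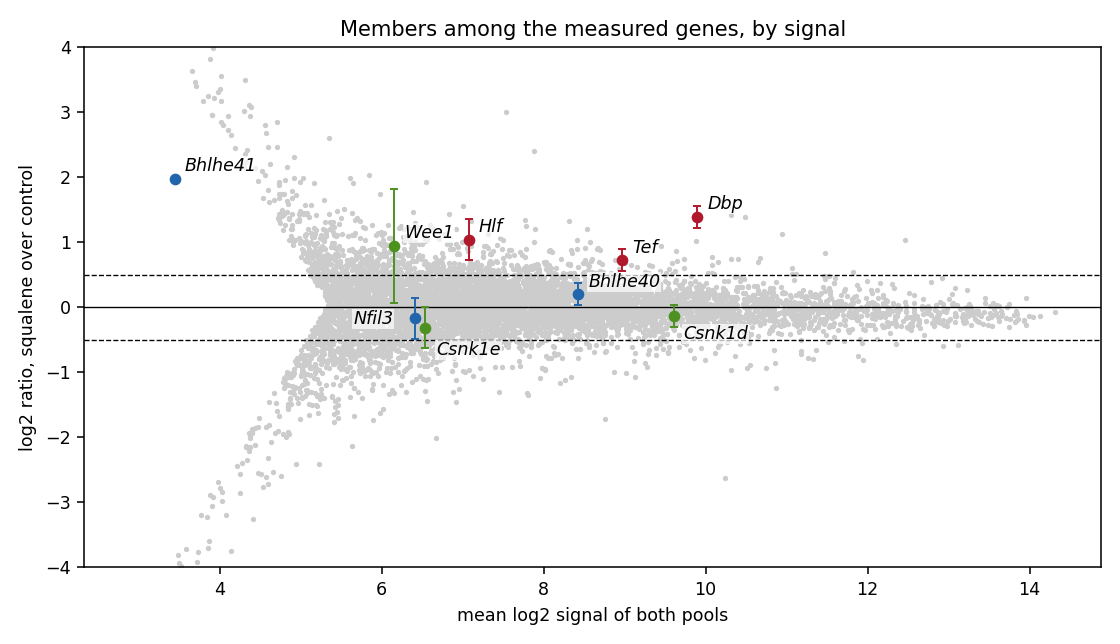
Log2 ratio of squalene over control against mean log2 signal for the measured genes (grey; 10 beyond a log2 ratio of 4 are not drawn) and for the 9 members with a probe set (red PAR bZIP, blue repressors, green kinases), with bars of 1 SD between probe sets of the same gene at that brightness. On the probe sets drawn, Dbp, Tef and Hlf stand above nearly all genes of like signal, but the other Hlf probe set, of almost equal brightness, gave 0.11. Wee1 lies in a wider part of the cloud, and Bhlhe41 has no bar because it was not measured in either pool.

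The repressors gave no common direction. Nfil3, which competes with the PAR bZIP factors for the D-box, gave 90.6 for control and 80.6 for squalene on its single probe set. Its log2 ratio was -0.17, against an SD of 0.32. It turned to 0.09 when the arrays were scaled to the spike-ins described below. Bhlhe40 (DEC1), a basic helix-loop-helix repressor that also answers to feeding and hypoxia, read 321.5 and 368.8, a log2 ratio of 0.20 with an SD of 0.17. In its class 518 of 2721 genes (19.0%) had a higher ratio. Neither repressor lay beyond 0.5, and both differed between pools by about the spread between probe sets or less. Bhlhe41 (DEC2), its close relative, read 5.5 and 21.6 on its single probe set, below the array median in both pools. No fold is given for it. With both signals raised to the median the log2 ratio, 0.05, is by construction that of the array medians and says nothing of Bhlhe41.

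Among the kinases, Csnk1d and Csnk1e lay near 0 and Wee1 did not. Csnk1d had 5 probe sets, and the one that stands for it gave 815.5 for control and 745.2 for squalene. The log2 ratios of the 5 ran from -0.13 to 0.18, 1 above 0, 3 below and 1 at 0, and each lay within 0.5. Csnk1e read 103.1 and 82.8 on its brighter probe set (log2 ratio -0.32) and 41.5 and 44.5 on the other (0.10). The sign of Csnk1e thus depends on the probe set, and that of Csnk1d turned to 0.13 with scaling to the spike-ins. For neither kinase was a difference seen beyond the spread of its probe sets.

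Wee1 encodes the kinase that holds back entry into mitosis and is a gene under clock control in liver. It gave 51.4 for control and 98.8 for squalene, and 24.1 and 41.3 on its second probe set, which lay below the array median in both pools. The log2 ratios were 0.94 and 0.78, so both were high in the squalene pool and differed little from each other. Both are dim, and in the dimmest class the SD was 0.88 and 207 of 2161 genes (9.58%) had a higher ratio than Wee1. Its difference is therefore about as large as the spread between probe sets at that brightness.

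**Figure D3:**
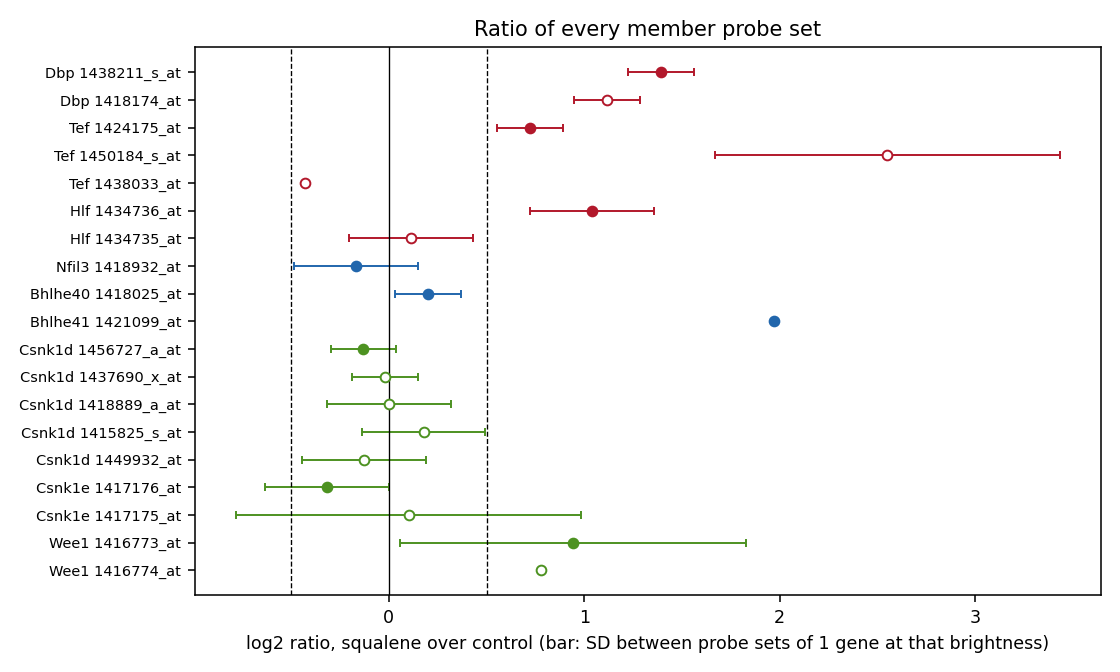
Log2 ratio of squalene over control for each of the 19 member probe sets (filled, the one that stands for its gene; colours as red PAR bZIP, blue repressors, green kinases), with bars of 1 SD between probe sets of the same gene at that brightness and dashed lines at 0.5 either way. Both Dbp and both Wee1 probe sets lie beyond 0.5, Hlf is split between 1.04 and 0.11, the 5 Csnk1d probe sets stay within 0.5, and probe sets below the array median in both pools have no bar.

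Genes of the pathway around the members were described from lists chosen with earlier results of these data known. The core clock loop had 10 measured genes of 14 listed. Of these 5 were higher and 2 lower, 3 lay between, and the median was 0.46. Averaging a gene's probe sets made that median 0.25, scaling to the spike-ins made it 0.72, and keeping genes that reach the 75th percentile made it 0.063. The 6 genes that reached the array median in both pools had the same median, with 3 higher and 0 lower: Cry1 (0.96) and Cry2 (0.55), which encode the cryptochrome repressors, and Nr1d2 (0.70), which encodes the repressor REV-ERB beta. Nr1d1, for REV-ERB alpha, stood at 0.36, Clock at -0.31 and Rora at 0.06. The other Clock probe set, with both signals above the array median, gave -0.64, lower past the limit. That of Nr1d2, below the array median in the control pool, gave 0.46. Per3, with the D-boxes shown above, read 16.5 and 100.6 on its brightest probe set, 15.5 and 31.4 on the next and 22.0 and 17.8 on the dimmest. The brighter Per2 probe set read 28.3 and 116.4 and the other 31.4 and 5.9, so the 2 go opposite ways. The 2 lower genes were Arntl, for BMAL1, which read 66.2 and 11, and Per1, which read 59.9 and 36.9. Each of these pairs for Per1, Per2, Per3 and Arntl has at least 1 signal below the array median, and Npas2 and Arntl2 lay below it in both pools.

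Genes reported as targets of the PAR bZIP factors in liver did not share a direction. Of 12 listed, 8 had a probe set and 7 were measured, all reaching the array median in both pools. The list held 1 higher and 1 lower gene, 5 lay between, and its median was 0.29. Cyp7a1, which starts bile acid synthesis from cholesterol, was higher on both of its probe sets (1.39 and 1.38). Cyp2b10, a drug-metabolising P450 enzyme, gave 1782.2 for control and 913.1 for squalene. Its log2 ratio was -0.96, and its other probe sets gave -0.87 and -1.28. Of the Cyp2b10 probe sets, 2 have the suffix _s_at. For Alas1, the first enzyme of heme synthesis, the probe set counted here gave 0.37, within the limit of 0.5. A dimmer Alas1 probe set, with signals of 483.3 for control and 835 for squalene, gave 0.79, beyond that limit. Ppara, a nuclear receptor of fatty acid breakdown, gave 0.36.

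Genes that act on clock proteins were mostly near 0, with Usp2 far above. Of 19 listed 14 were measured. There were 2 higher and 1 lower, 11 lay between, and the median was 0.08. Usp2, a deubiquitinase whose RNA is strongly rhythmic, was 8.02-fold higher. Nampt, which makes an NAD precursor, stood at 0.73 and Sirt1, an NAD-dependent deacetylase, at 0.47. The other Nampt probe set gave 0.31, within the limit of 0.5. Fbxw7, a ubiquitin ligase subunit, was the lower one (-1.19), and its signal fell short of the array median in the squalene pool. In the casein kinase 1 family 4 of 6 listed genes were measured and all lay between, with a median of -0.08 that turned to 0.18 with scaling to the spike-ins. Csnk1g2 stood at 0.43, and Csnk1a1 at -0.02 on its brightest probe set. The 3 probe sets of Csnk1a1 ran from -1.49 to -0.02.

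Relatives of the members by protein family did not read higher with them. Of the C/EBP and ATF bZIP factors 7 of 9 were measured. All 7 lay between, with 0 higher and 0 lower, and the median of 0.01 was -0.04 after centring on the array medians. Cebpd stood at 0.49, Cebpb at 0.41, Cebpg at 0.37 and Crem at -0.38, and other probe sets of Cebpd and Cebpg gave -0.43 and -1.04. The bHLH relatives of Bhlhe40 had 5 measured of 7 listed. There were 0 higher and 3 lower, 2 lay between, and the median was -0.63. The 3 were the Id genes, whose proteins block other bHLH factors: Id3 at -1.31, Id1 at -1.19 and Id2 at -0.63, with other Id2 probe sets as far apart as -1.16 and 0.062. Hes1 stood at 0.19. With plain-suffix probe sets only the list's median was 0.062.

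The list of Wee1 partners at the G2 to M step and of other proliferation genes was mostly too dim to place, with 3 of 13 listed measured. None of the 3 was higher and 2 were lower: Cdkn1a, an inhibitor of cyclin-dependent kinases, at -1.11 and Ccnd1, for cyclin D1, at -0.94, while Cdk2 stood at -0.22. The 3 probe sets of Ccnd1 ran from -0.94 to 0.080, and the list's median of -0.94 was -0.24 with the second brightest probe set per gene and -0.13 with no filter. Cdk1, whose protein WEE1 phosphorylates, read 2.7 and 4.8, below the array median in both pools, so it is not among the 3. Of 17 enzymes and carriers that take electrons from POR or hand them on, 16 were measured, 3 higher, 1 lower and 12 between. Their median of -0.10 was 0.16 with scaling to the spike-ins and 0.00 after loess. Besides Cyp7a1, Cyp3a13, a P450 enzyme, stood at 0.75, Cyp51, the sterol demethylase, at 0.50 and just past the limit, and Sqle, which oxidises squalene, at 0.38. The 3 probe sets of Cyp51 ran from 0.11 to 0.52.

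**Figure D4:**
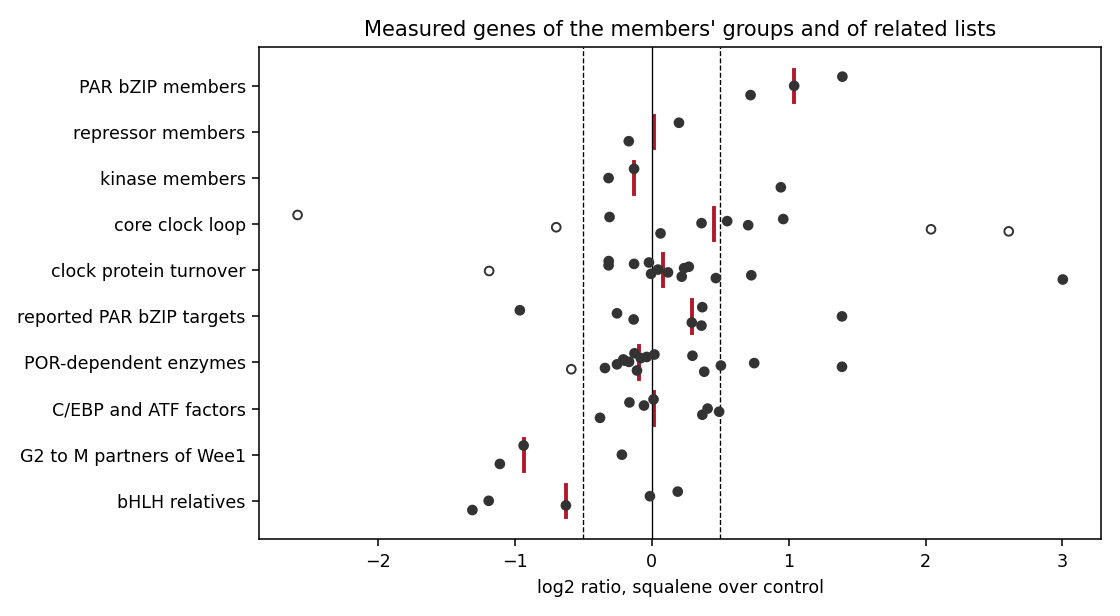
Log2 ratios of squalene over control for the measured genes of the members' groups and of the related lists (filled points where both signals reached the array median, open points where 1 did not), with red bars at the list medians and dashed lines at 0.5 either way. On their brightest probe sets the 3 PAR bZIP genes lie at 0.72 to 1.39, and the other Hlf probe set, not drawn, gave 0.11. Reported targets run from -0.96 to 1.39 and the C/EBP and ATF factors stay between -0.38 and 0.49. The row named for G2 to M partners of Wee1 also holds other proliferation genes.

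Several values of the arrays as a whole stand beside these results. The 18 probe sets of hybridization spike-ins all had a weaker signal on the squalene array (median log2 ratio -0.26), and scaling to them raised the median over all probe sets from 0.04 to 0.29. With that scaling 25.7% of measured genes were higher and 5.08% lower, and the count of higher members stayed at 4. The liver label was met by hepatocyte markers, of which 11 of 12 were measured with a median of 0.02, a range of -0.21 to 0.45 and a summed signal of 125242.0 and 122290.0. Macrophage and Kupffer cell markers were lower in the squalene pool, with 12 of 13 measured, all 12 below 0, 8 lower and a median of -0.68, and summed signals of 6964.1 and 4520.6. Stellate cell markers had 5 of 8 measured, a median of -0.70 and summed signals of 3399.6 and 3151.2. Endothelial markers had 9 of 10 measured, 2 higher and 1 lower, a median of -0.01 and summed signals of 1718.3 and 1367.4. Of the lymphocyte, neutrophil, blood cell and exocrine pancreas markers 1, 3, 1 and 1 were measured, with medians of 0.71, -0.50, -0.47 and -0.31, and of the cholangiocyte, adipose and skeletal muscle markers 0. The part of these values in the members' differences was not tested, and in pooled tissue fewer cells of a type and less RNA per cell cannot be told apart. Apoe read 141.0 and 130.6 on its 1 probe set, which cannot check the deficiency without knowing which part of the gene was altered.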

How the data were processed

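Both pools were grouped by their sample titles. The deposited table holds linear intensities, 1 per probe set, which the authors made with MAS5, per the submitters' processing notes. Its software version was not found in the sources used here. The trimmed mean signal was about 200.1 on both arrays, seen in the values. Of 22690 probe sets, 64 array controls were left out, and 20380 had a single symbol in the platform annotation, 691 several and 1555 none.

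The log2 ratio of squalene over control was taken without a pseudocount. Members, lists and limits were chosen with earlier results of these data known. Named genes were all members and, from other lists, up to 4 genes with the largest ratios among those reaching the array median in both pools, and the core clock genes. Fbxw7, Cdk1, Csnk1a1 and Apoe, and the Per3 promoter, were added after their values were seen. Counting was tested on simulated data. Alternatives were other probe sets per gene, other scalings (centring, quantile, loess with a fraction of 0.4, spike-ins), a pseudocount, a floor, other filters and limits of 1.0 and 1.5. Python 3.11.15 was used with numpy 2.4.6, pandas 2.3.3, statsmodels 0.14.6 and matplotlib 3.10.9. With 1 array per group, the number of arrays limits the precision.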

Additional observations from a re-analysis of the deposited data

How the results depend on the processing

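No member was lower past the limit under any of the 15 alternatives run, but several could not have made one so. Limits of 1.0 and 1.5 cannot add a lower member. All 8 measured members reached the median in both pools, so the filter on both pools and the floor at the median left their ratios unchanged. The filter at the 75th percentile can only remove members, and no filter added only Bhlhe41. The count of 4 higher members lay between 3 and 5 under 11 alternatives, with these filters and the floor among them. It was 2 with a limit of 1.0, 0 with a limit of 1.5, 2 with the second brightest probe set and 1 with each gene's smallest ratio, which by construction favours ratios near 0. The members' median of 0.46 was 0.72 with a filter at the 75th percentile, where 5 members were left, and 0.72 both with no filter and with scaling to the spike-ins. It was 0.11 with the second brightest probe set and 0.11 with the smallest ratio per gene. The filter at the 75th percentile asks for only 1 pool, and Hlf passed it through the squalene pool alone (percentile 66.6 in control, 77.4 in squalene). The members' median and count under that filter thus rest in part on a member let in by the pool in which it was high. Tef turned to -0.43 on its probe set of smallest ratio, which is below the array median in both pools. The bHLH list turned to 0.062 with plain-suffix probe sets. Over all measured genes, the share higher came to 5.81% when filtering at the 75th percentile, 21.5% with no filter and 25.7% with scaling to the spike-ins. The share lower was 4.70%, 19.8% and 5.08% under those, and 6.35% with both pools at or above the median. Dbp lay between 1.11 and 1.65, Wee1 between 0.78 and 1.20 and Hlf between 0.11 and 1.30 over 13 alternatives. No paired analysis was possible because each group has 1 array. Array number and dim signals limit what can be read, and animal-to-animal spread was not measured.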
